A study of Mus musculus with 8 samples.

Results

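Antisense and intronic non-coding RNA genes are transcription units annotated on the strand opposite a coding gene, or within or across it on its own strand. Exon identifiers in the deposited count files were assigned to genes by GENCODE M21, with version suffixes ignored, and counts were summed per gene. Genes of type antisense, sense_intronic or sense_overlapping with at least 80 counts over the 8 libraries were taken, apart from the imprinted transcripts Kcnq1ot1 and Airn. This gave 327 genes of 52502 with an exon identifier in the files, and of 3050 genes of the 3 types, 1761 of which had any count. Of the 327, 299 were antisense, 23 sense_intronic and 5 sense_overlapping. They were selected on their total count over both groups, so their totals are a description. Gm15288 and Gm26973 (80 counts each) and Gm35732 (81) lay just inside the threshold, and Gm26770 (79), Gm27008 and Gm16157 (78 each) just outside it.

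The libraries were RNA-seq of germinal vesicle (GV) oocytes, fully grown mouse oocytes arrested in the first meiotic prophase. The conditional knockout (cKO) oocytes, 4 libraries, were Kiaa1429F/F;Zp3-Cre, and the control oocytes, 4 libraries, were Kiaa1429F/+;Zp3-Cre, so that the controls also carried the Cre transgene and 1 floxed allele. Zp3-Cre is driven by a promoter active in growing oocytes. Kiaa1429, named Virma in the annotation, encodes a scaffold subunit of the complex that places N6-methyladenosine (m6A) on RNA. All females were C57BL/6 mice of 20 days, given 5 IU of PMSG (pregnant mare serum gonadotropin) 48 h before collection, and about 20 oocytes of at least 70 µm entered each sample. The sample descriptions mention 4 distinct experiments, but it is not stated that each replicate number stands for 1 of them. Nothing in the labels ties a library to an animal either. The tests therefore see only the variation among these 8 libraries, and how much of it is technical is not known.

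An antisense transcript can start near the promoter of its coding gene, run across its 3′ end or lie within its introns, and it need not follow the coding gene's level. Many such RNAs are short, weakly spliced and degraded in the nucleus, which the nuclear exosome and its adaptors carry out. Mouse oocytes are known for processing double-stranded RNA, including sense-antisense pairs, into small interfering RNAs through Dicer1 and Argonaute proteins, and the m6A writer prefers an adenosine in contexts such as GGACT.

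Transcript ends are shown for 6 genes with large or host-independent changes, because 68.6% of the counts on the 327 genes lay on exons that end a transcript, against 85.5% of the counts on all genes. Each is the last 60 bases of the longest GENCODE M21 transcript that contains the gene's exon with most counts. The ends run 5′ to 3′ on the gene's own strand (GRCm38). Each poly(A) signal hexamer, AATAAA or ATTAAA, is in capitals (a longer run of capitals holds overlapping hexamers). They lie at chr10:87826389-87826448, minus strand (Igf1os), chr4:142042912-142042971, minus (Gm13053), chr7:10716803-10716862, plus (Gm45379), chr5:116129051-116129110, plus (C330018A13Rik), chr11:43229563-43229622, minus (Gm12144) and chr9:109460046-109460105, plus (Gm42493).
Igf1os: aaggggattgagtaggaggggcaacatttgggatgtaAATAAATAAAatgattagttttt
Gm13053: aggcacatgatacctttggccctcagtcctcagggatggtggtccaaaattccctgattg
Gm45379: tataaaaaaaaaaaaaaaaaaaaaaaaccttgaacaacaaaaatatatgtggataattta
C330018A13Rik: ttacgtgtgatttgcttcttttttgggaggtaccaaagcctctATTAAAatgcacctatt
Gm12144: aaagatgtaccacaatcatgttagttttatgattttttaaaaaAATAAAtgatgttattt
Gm42493: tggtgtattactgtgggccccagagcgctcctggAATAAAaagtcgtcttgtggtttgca
A hexamer stood in the ends of Igf1os, C330018A13Rik, Gm12144 and Gm42493, and these letters were not in the windows of Gm13053 and Gm45379. Gm45379, a single-exon gene of 549 bases, carried a long run of A instead. The ends of Kbtbd8os and Gm31834, which fell as well, were also read. They held neither hexamer and are not printed. Over the 327 genes, searched on the transcript strand, 47.4% had either hexamer in the last 60 bases, against 51.6% of 798 tested lincRNA genes and 77.9% of 7991 tested protein-coding genes. A run of 10 A stood in the last 60 bases of 1.22% of the 327, against 0.627% of the lincRNA and 2.13% of the protein-coding genes.

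The windows around the starts of the genes with the largest called fall against a rising host and the largest called rise against a falling host are shown as well. They are RefSeq promoters (GRCm38.p6), 250 bases before to 50 after the start, 5′ to 3′ on the gene's strand, with each CG pair in capitals, at chr10:87863344-87863643, minus strand (Igf1os) and chr5:116123364-116123663, plus strand (C330018A13Rik).
Igf1os: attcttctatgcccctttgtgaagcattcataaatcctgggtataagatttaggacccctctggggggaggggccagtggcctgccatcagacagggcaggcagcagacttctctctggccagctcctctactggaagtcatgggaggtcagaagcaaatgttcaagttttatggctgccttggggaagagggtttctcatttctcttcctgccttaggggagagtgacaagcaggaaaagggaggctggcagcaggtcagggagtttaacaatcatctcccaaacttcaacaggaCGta
C330018A13Rik: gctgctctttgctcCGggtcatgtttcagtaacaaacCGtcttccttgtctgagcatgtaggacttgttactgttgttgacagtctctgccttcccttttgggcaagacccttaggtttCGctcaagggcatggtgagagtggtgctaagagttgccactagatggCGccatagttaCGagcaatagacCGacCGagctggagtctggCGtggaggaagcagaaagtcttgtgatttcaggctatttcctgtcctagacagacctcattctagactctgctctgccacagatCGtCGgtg
Neither window met an exon of another gene. The Igf1os window held 1 CG pair and that of C330018A13Rik 10, against a median of 7 over all 32851 RefSeq promoters. A RefSeq promoter could be matched by symbol and strand for 145 of the 327 genes, and the median was 7 for 74 matched genes that fell and 7.5 for 22 that rose. In 88 of the 145, the RefSeq start lay within 100 bases of the GENCODE start (median 7). The other windows may belong to a different start of the gene.

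Virma had 18.6, 24.2, 17.8 and 17.0 CPM (read counts scaled to a common library total, with TMM factors) in cKO oocytes, against 61.0, 71.6, 57.1 and 82.0 CPM in control oocytes, a log2 fold change of -1.81 (SE 0.18, edgeR adjusted p = 1.02e-06). Between 4399190 and 5064008 reads per cKO library and between 4247471 and 4790038 per control library were assigned to exon identifiers. Reads that the files list as ambiguous between identifiers made up 79.3% ± 0.751 of reads in cKO and 73.8% ± 1.07 in control oocytes, and reads outside every identifier 5.77% ± 0.531 and 11% ± 0.883 (SD, n = 4 each). Of 11 tested oocyte markers 4 were lower, 1 was higher and 6 were not called. All 12 summed to 20500 to 24221 CPM in cKO and 35884 to 48231 CPM in control libraries, but to 6621 to 7101 and 6594 to 7430 CPM without the growth factor genes Gdf9 and Bmp15. Of 8 tested cumulus and granulosa markers 3 were higher and 2 lower. The 13 of that list summed to 401 to 690 CPM in cKO and 200 to 358 CPM in control libraries, and without Nr5a2 and Inha to 46.7 to 82.0 and 51.8 to 68.7 CPM. The 6 theca and stroma markers summed to 4.21 to 5.31 CPM in cKO and 5.54 to 6.84 CPM in control libraries. The 7 immune, blood and vessel markers, 3 of them at 0, summed to 6.37 to 11.6 and 3.25 to 7.10 CPM, and without the macrophage gene C1qa, which was called higher, to 1.70 to 3.74 and 3.25 to 6.84 CPM. The genes taken out of these sums were picked after their values were seen. The part of these differences in the results was not tested, and fewer transcripts per oocyte and fewer contributing cells cannot be told apart.

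The 327 genes held 276698 counts over the 8 libraries, with a median of 275 and a maximum of 15609 per gene. The 10 most abundant held 28.3% of these counts, and 65 genes exceeded 1000 counts. Members of this class had a median of 3 exon identifiers and 866 countable bases, meaning bases that no other identifier covers. Counting ignored strand, as far as the values show: the 72 of their identifiers that were fully covered by exons of the opposite strand held 0 counts, so reads there cannot be told apart from those of the partner. Identifiers that met no exon of another gene held 90.9% of the counts. In 255 of 292 genes with a host, the exon with most counts lay apart from every host exon, at a median distance of 3423 bases. The values below therefore came mostly from sequence outside the annotated exons of the coding partner, although unspliced or extended host RNA there could not be separated.

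Together, the antisense and intronic genes took a smaller share of the counts in cKO oocytes, as a description of a chosen set. They took 0.630, 0.632, 0.579 and 0.660% of the counts on exon identifiers in cKO libraries, against 0.975, 0.881, 0.819 and 1.01% in control libraries. Every cKO library lay below every control library, at 0.626% ± 0.0337 and 0.921% ± 0.0875 (SD, n = 4 each). Without Gm31834, which had the most counts, the shares were 0.606% and 0.852%. Sense_intronic genes took 0.0120% ± 0.00147 in cKO and 0.0387% ± 0.00636 in control oocytes, whereas sense_overlapping genes took 0.0140% ± 0.000971 and 0.0110% ± 0.00110. The host coding genes took 1.21% ± 0.0232 and 1.42% ± 0.0323.

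Of the 327 genes, 320 passed the filter on low counts and were tested by edgeR's quasi-likelihood test with Benjamini-Hochberg adjustment over 10673 genes. At an adjusted p below 0.05, 174 fell (54.4%), 42 rose (13.1%) and 104 were not called, with a median log2 fold change of -0.75. Over all 10673 genes, 27.9% were called lower and 27% higher (54.9% in either direction), with a median of 0.02. The groups did not overlap in 199 of the 320 (62.2%), against 50.1% of all genes. Other non-coding classes leaned the same way: of 798 lincRNA genes 51.1% fell and 18% rose (median -0.65), and of 146 genes of the unconfirmed class TEC 53.4% fell and 12.3% rose (median -0.91). Protein-coding genes leaned slightly the other way, with 23.5% lower and 30.4% higher (median 0.10). The antisense and intronic genes thus stood close to the lincRNA and TEC genes in these shares, and no test sets them apart.

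**Figure D1:**
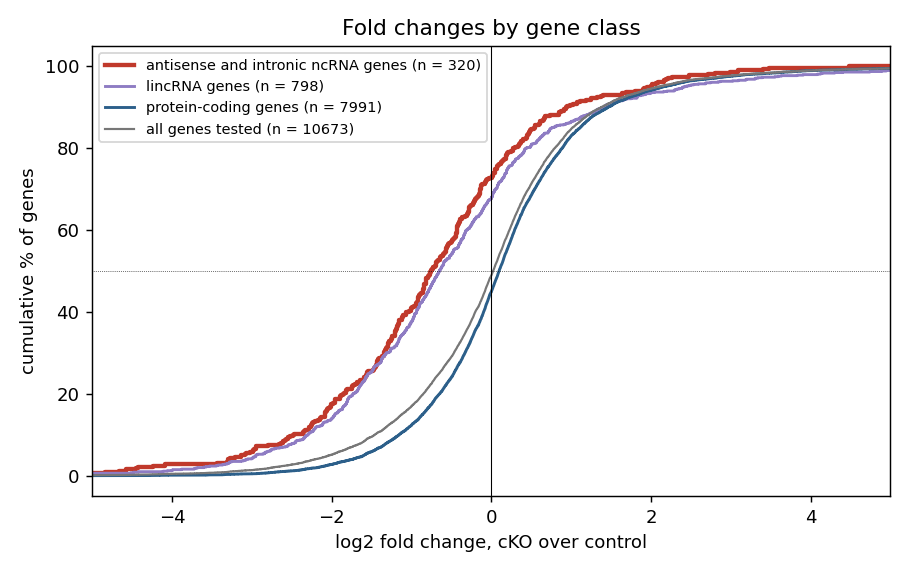
Cumulative percentage of genes (y axis) against the log2 fold change of cKO over control (x axis, shown from -5 to 5) for 320 antisense and intronic genes, 798 lincRNA genes, 7991 protein-coding genes and all 10673 genes tested. The median of the antisense and intronic genes lies at -0.75, near that of lincRNA genes (-0.65) and left of that of protein-coding genes (0.10).

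Position relative to the host was described by the counts of called genes. Over all 320 tested genes of the class 54.4% fell and 13.1% rose, against 27.9% and 27% of all genes. Of 131 tested genes inside their host, sense_intronic ones among them, 78 fell (59.5%) and 12 rose (9.16%). Of the antisense genes inside, 27 of 46 whose exons met host exons fell, and 35 of 64 whose exons did not. Over the host's 5′ end, 51 of 78 fell and 9 rose (median log2 fold change -1.01), and over the 3′ end 20 of 58 fell and 15 rose (median -0.21). Of 19 genes that spanned their host, 4 fell and 5 rose, and of 34 with no host, 21 fell and 1 rose. Of 145 genes whose annotated exons overlapped host exons 79 fell (54.5%), and of 141 whose exons did not 74 fell (52.5%), near the share of the class. Differences between positions were not tested.

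**Figure D2:**
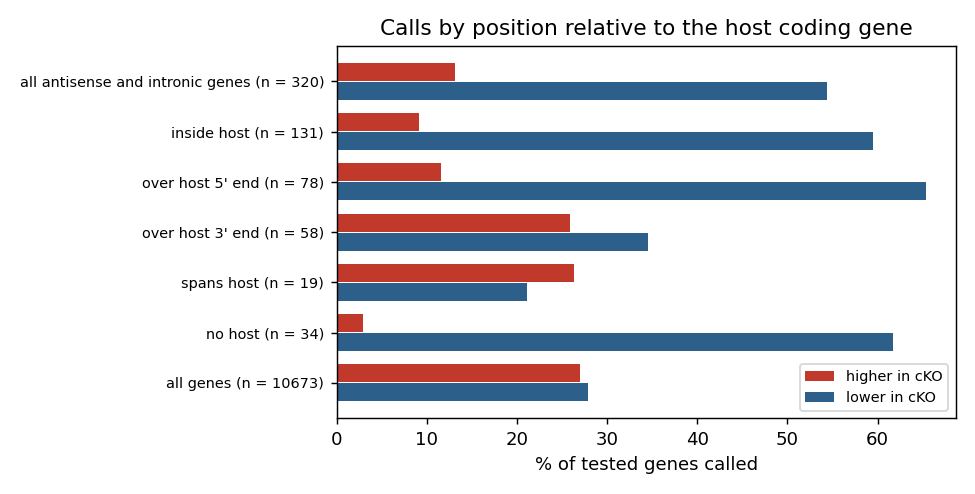
Percentage of tested genes called higher (red) and lower (blue) in cKO oocytes, by position relative to the host coding gene, with the number of genes tested in each row and all 10673 genes at the bottom. The percentage called lower is 65.4% over the host 5′ end, 59.5% inside the host and 34.5% over the host 3′ end.

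The 10 largest falls and 10 largest rises were taken among called genes at 10 CPM or more whose groups did not overlap, so separate groups were a condition of their choice. Among the falls, Igf1os is antisense to Igf1, which encodes insulin-like growth factor 1, and overlaps the 5′ end of that gene; its transcript end is shown above. It had 2.22, 3.82, 3.22 and 2.62 CPM in cKO oocytes, against 68.8, 60.6, 73.9 and 57.8 CPM in control oocytes. The 4 cKO libraries sat close together and far below all control libraries, with a log2 fold change of -4.45 (SE 0.21, edgeR adjusted p = 2.47e-09). One exon with 99.9% of its counts lay 29691 bases from the nearest Igf1 exon. Igf1 itself had 7.53, 11.5, 10.5 and 21.5 CPM in cKO oocytes, against 2.88, 3.59, 4.21 and 11.5 CPM in control oocytes. The fourth control library overlapped the cKO range, and the host rose by 1.22 on the log2 scale (SE 0.41, edgeR adjusted p = 0.0192). Igf1 reads from carried-along cumulus and granulosa cells cannot be told apart from those of oocytes, and their part in this rise was not tested. The change of Igf1os minus that of Igf1 was -5.71 (SE 0.44, edgeR adjusted p = 1.34e-10).

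Gm13053, a sense_intronic gene within Tmem51, which encodes a transmembrane protein, had 1.33, 1.49, 1.29 and 1.87 CPM in cKO oocytes, against 38.4, 55.3, 43.1 and 38.3 CPM in control oocytes. All cKO libraries lay under 2 CPM, with a log2 fold change of -4.84 (SE 0.24, edgeR adjusted p = 3.65e-09). Its main exon lay 10335 bases from the nearest Tmem51 exon. Tmem51 had 12.4, 2.97, 2.36 and 11.4 CPM in cKO oocytes, against 8.65, 22.7, 13.9 and 8.51 CPM in control oocytes, with overlapping groups and no call (-0.87, edgeR adjusted p = 0.12). The change of the intronic gene minus that of its host was -3.91 (SE 0.44, edgeR adjusted p = 7.2e-08).

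Gm16144, antisense within Anxa2 (annexin A2, a membrane-binding protein), was the most abundant of these falls. It had 35.2, 30.2, 28.6 and 28.6 CPM in cKO oocytes, against 255, 292, 288 and 242 CPM in control oocytes, with a log2 fold change of -3.13 (SE 0.14, edgeR adjusted p = 2.47e-09). Anxa2 fell too, by 2.14 on the log2 scale. The difference between them, -0.97 (edgeR adjusted p = 0.0272), was not called without cKO replicate 4 (-0.52, adjusted p = 0.276).

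The other large falls ran from -4.66 to -2.59 on the log2 scale. Gm37623, within the sodium-proton exchanger gene Slc9a2, averaged 1.03 ± 0.636 CPM in cKO and 26.9 ± 12.6 CPM in control oocytes, and Gm16249, which has no host, 3.38 ± 1.41 and 57.3 ± 15.9 CPM (SD, n = 4 each). Gm28989, over the 3′ end of the importin gene Ipo11, averaged 9.49 ± 1.77 CPM in cKO and 79.8 ± 8.96 CPM in control oocytes, while Ipo11 had at most 1 count in any library on its countable exons. Gm12126 (in Tenm2), Gm12195 (in Tbc1d9b), Gm15687 (in Bcat1, a branched-chain aminotransferase gene) and Gm26725 (over Rbm47, an RNA-binding protein gene) fell by 3.43, 3.02, 2.61 and 2.59 on the log2 scale.

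The rise of C330018A13Rik was the largest of the 42. This antisense gene overlaps the 3′ end of Ccdc60, a coiled-coil protein gene. It had 38.8, 47.6, 32.5 and 37.3 CPM in cKO oocytes, against 0.222, 0.239, 1.05 and 0 CPM in control oocytes. In counts, these were 749 over the cKO libraries and 6 over the controls, a ratio of 119 with an exact 95% interval of 54.6 to 327 that covers counting error only. The fitted log2 fold change was 6.64 (SE 0.39, edgeR adjusted p = 9.71e-09), and no control library came near a cKO library. Ccdc60 had 22.8, 20.6, 21.5 and 22.8 CPM in cKO oocytes, against 32.8, 37.1, 34.5 and 28 CPM in control oocytes, and fell without overlap by 0.59 on the log2 scale (SE 0.16, edgeR adjusted p = 0.00598). The change of the antisense gene minus that of its host was 7.23 (SE 0.44, edgeR adjusted p = 1.33e-12).

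E430024P14Rik, which spans Tagap, a gene of T-cell signalling, had 83.1, 70.8, 91.1 and 86.5 CPM in cKO oocytes, against 4.88, 5.03, 9.73 and 10.3 CPM in control oocytes. The cKO libraries were all above 70 CPM and the controls all below 11 CPM, with a log2 fold change of 3.48 (SE 0.24, edgeR adjusted p = 3.14e-08), while Tagap was too low to be tested. Gm15581, which spans the caveolin gene Cav1, and Gm15775, in Gm20388, rose by 3.40 and 3.09. Cav1 had at most 1 count in any library, and Gm20388 had 0 countable bases, so its level was not measured. Gm12144, within the phospholipid transporter gene Atp10b, had 89.3, 96.5, 81.5 and 96.2 CPM in cKO oocytes, against 22.4, 18.2, 17.1 and 20.3 CPM in control oocytes. It rose by 2.22 (SE 0.16, edgeR adjusted p = 4.28e-08) and exceeded the rise of Atp10b (0.59) by 1.63 (SE 0.25, edgeR adjusted p = 3.46e-06).

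A further 5 of the largest rises lay between 1.39 and 2.06 on the log2 scale. 9530036O11Rik, over the 5′ end of the hedgehog ligand gene Shh, had 21.3, 21.2, 23.2 and 18.9 CPM in cKO oocytes, against 4.66, 4.79, 4.47 and 7.25 CPM in control oocytes. It rose by 1.99 (SE 0.22, edgeR adjusted p = 2.22e-06), and Shh rose by 1.51 (SE 0.33, edgeR adjusted p = 0.00122); their difference of 0.49 was not called (SE 0.44, adjusted p = 0.338). 2700069I18Rik, over the 5′ end of the homeobox gene Zfhx4, averaged 67.9 ± 14.1 CPM in cKO and 16.3 ± 6.04 CPM in control oocytes (SD, n = 4 each). D930019O06Rik and its host Creg2, a secreted glycoprotein gene, rose by 1.64 and 2.21, and their difference was not called (-0.57, edgeR adjusted p = 0.135). It was called without control replicate 3 (-0.85). Gm21284, at the deubiquitinase gene Stambp, and 1700112D23Rik, at the glucose transporter gene Slc2a2, rose by 1.91 and 1.39, with both hosts untested.

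**Figure D3:**
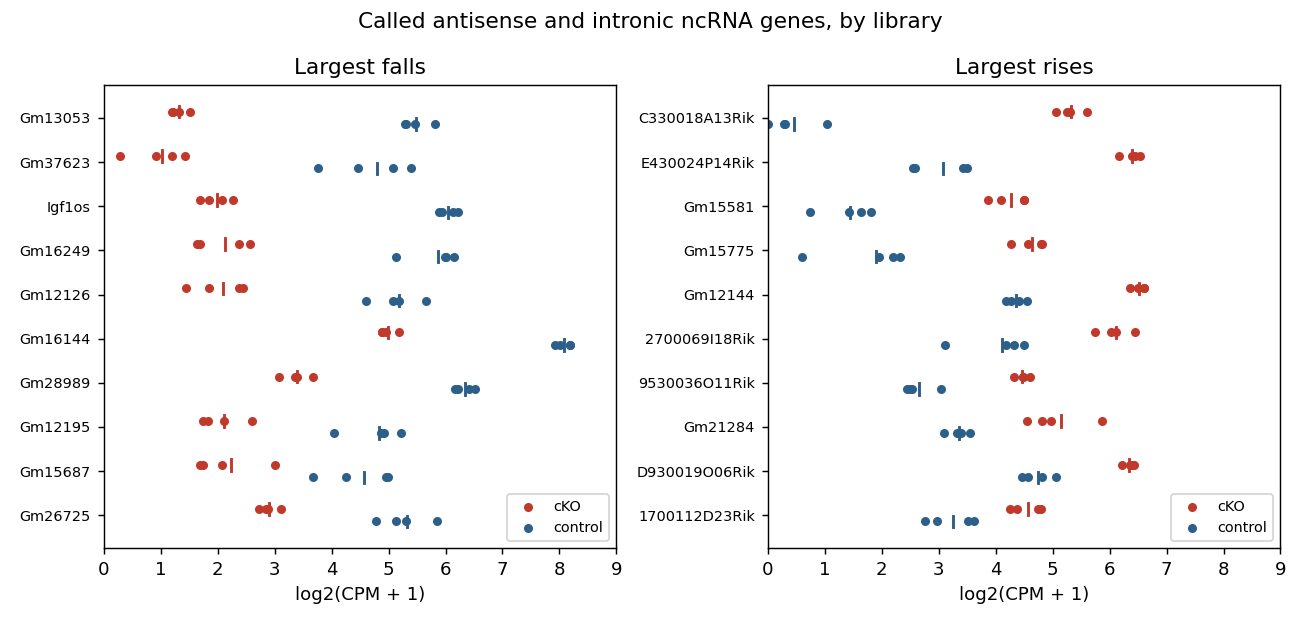
Expression of the 10 antisense and intronic genes with the largest called falls (left) and the 10 with the largest called rises (right) at a mean of 10 CPM or more, as log2(CPM + 1) on the x axis. Points are libraries, cKO in red above control in blue, and vertical ticks stand at the log2(mean CPM + 1) of each group. The groups do not overlap in any of the 20 genes, which the choice of genes required.

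Among the 10 genes with most counts, 7 were called, 6 of them lower. Gm31834, at the 5′ end of Txndc5, a protein disulfide isomerase gene, had 193, 187, 156 and 196 CPM in cKO oocytes, against 680, 633, 848 and 787 CPM in control oocytes. It fell without overlap by 2.01 on the log2 scale (SE 0.14, edgeR adjusted p = 3.09e-08), and below Txndc5 by 1.49 (edgeR adjusted p = 0.000713), whose own value of -0.64 was not called. Gm40617, within the kinase-anchoring protein gene Akap7, had 339, 342, 307 and 376 CPM in cKO oocytes, against 263, 269, 197 and 275 CPM in control oocytes. It rose by 0.44 (SE 0.13, edgeR adjusted p = 0.0113) without overlap, and Akap7 fell by 0.72. A330093E20Rik, Gm10248, Gm47272, A330009N23Rik and Gm13752 fell, with log2 fold changes between -1.96 and -0.57. 0610040F04Rik (-0.14), Gm45040 (0.37) and Gm13990 (-0.28) were not called, and their groups overlapped. The same held for Gm20234 (0.02), an abundant gene that is not among the 10.

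Of the 292 genes with a host, 172 were tested together with a tested host, in an edgeR model that set the change of the non-coding gene against that of the host within libraries. The change was below that of the host in 67 (39.0%) and above it in 31 (18%). Over all 296 pairs of any tested non-coding gene with a host, which include these 172, 41.9% were below and 17.6% above. In the 124 pairs of other non-coding genes, 46.0% were below and 16.9% above, so the shares were near this background. Across the 172 pairs the log2 fold changes of non-coding gene and host had a Pearson r of 0.08 and a Spearman rho of 0.12, as a description across genes that share libraries. In 68 pairs both genes were called, 41 in the same direction and 27 in opposite directions. The non-coding gene fell and the host rose in 19 of the 27, and the non-coding gene rose and the host fell in 8. Of 169 tested hosts, 56 fell (33.1%) and 37 rose (21.9%), against 27.9% and 27% of all genes. Calls leaned to falls in both the non-coding genes and the hosts, so pairs can share or oppose direction without any link. The counts of directions were not tested against unrelated calls.

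**Figure D4:**
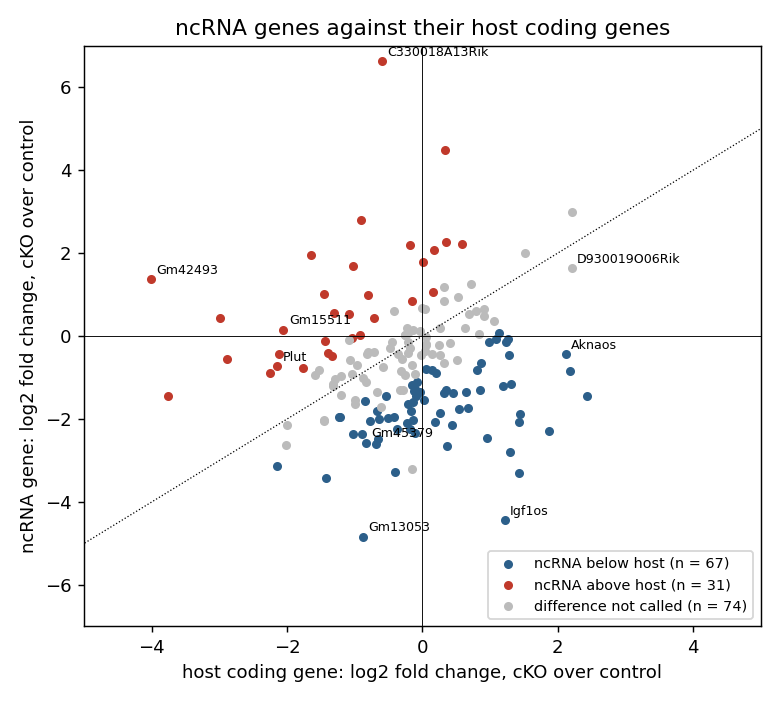
Log2 fold change of cKO over control of 172 antisense and intronic genes (y axis) against that of their host coding gene (x axis); the dotted line marks equal change. Blue points (67) changed below their host, red points (31) above it, and for grey points (74) the difference was not called; the points scatter widely around the line (Pearson r 0.08).

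Genes that fell while their host rose included Gm20548, within Wdfy3, which encodes a selective autophagy adaptor. It had 6.65, 6.37, 5.8 and 6.74 CPM in cKO oocytes, against 26.8, 27.8, 33.4 and 24.8 CPM in control oocytes, without overlap (log2 fold change -2.13, SE 0.19, edgeR adjusted p = 3.89e-07). Wdfy3 rose by 0.44, and the difference was -2.55 (SE 0.26, edgeR adjusted p = 1.56e-08). Gm16234, within the vesicle-trafficking gene Vta1, averaged 27.6 ± 7.39 CPM in cKO and 92.9 ± 19.4 CPM in control oocytes (SD, n = 4 each), while Vta1 rose by 0.55. Aknaos averaged 44.0 ± 4.30 CPM in cKO and 59.8 ± 6.74 CPM in control oocytes; its fall of 0.44 was not called without scaling (-0.28, adjusted p = 0.133), without the filter on low counts, or without control replicate 1 or cKO replicate 1. Its host Akna, an AT-hook and centrosomal protein gene, rose by 2.12, and the difference was -2.57 (SE 0.35, edgeR adjusted p = 1.02e-06).

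In the opposite direction, Gm42493 starts 495 bases from the start of Fbxw16, an F-box protein gene of a clustered family whose copies may share reads. Gm42493 had 24.4, 24.9, 28.4 and 31.5 CPM in cKO oocytes, against 11.3, 8.14, 9.73 and 13 CPM in control oocytes. It rose without overlap by 1.37 (SE 0.20, edgeR adjusted p = 3.56e-05), and Fbxw16 had at most 0.43 CPM in cKO libraries and at least 3.99 CPM in control libraries (-4.01, edgeR adjusted p = 5.53e-06). The difference between them was 5.38 (SE 0.54, edgeR adjusted p = 1.16e-08). Gm15511 lies within Rora, a nuclear receptor gene. It averaged 32.0 ± 6.67 CPM in cKO and 28.6 ± 5.01 CPM in control oocytes (SD, n = 4 each), with overlap and no call (0.16, edgeR adjusted p = 0.521), while Rora fell by 2.05 and the difference was 2.19 (SE 0.23, edgeR adjusted p = 3.14e-08). On exon identifiers that meet no other gene, Gm15511 was called higher (0.55, adjusted p = 0.0335). Plut, over the 5′ end of the pancreatic homeobox gene Pdx1, averaged 11.2 ± 1.93 CPM in cKO and 18.7 ± 0.563 CPM in control oocytes; it fell by 0.73 and Pdx1 by 2.15. 9230117E06Rik (0.55, not called, but called without control replicate 4 or cKO replicate 2) stood above its falling host Dgkg, a diacylglycerol kinase gene, by 1.89 (SE 0.38, edgeR adjusted p = 0.00017).

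**Figure D5:**
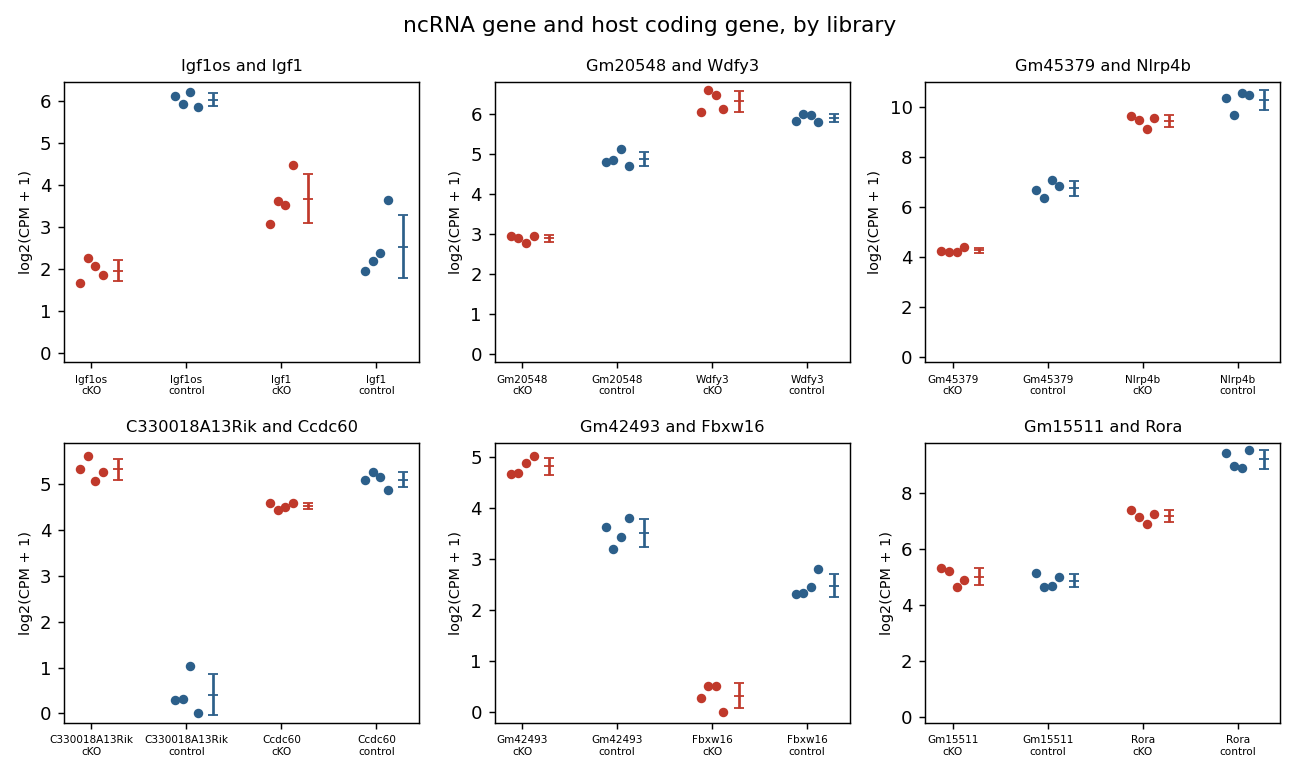
log2(CPM + 1) per library of 6 non-coding genes (left in each panel) and their host coding genes (right), cKO in red to the left of control in blue; points are libraries and bars show mean ± SD of the log2 values (n = 4 each). Igf1os and Gm20548 are lower in cKO while their hosts are higher, C330018A13Rik and Gm42493 are higher while their hosts are lower, and the groups overlap for Gm15511 but not for Rora.

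Among the sense_intronic genes 22 were tested, of which 17 fell (77.3%) and 2 rose (9.09%), with a median of -1.77, against 27.9% and 27% of all genes. The exon with most counts lay between 408 and 169037 bases from the nearest exon of the host, and these genes share the strand of the host, so that its unspliced RNA cannot be told apart from theirs. Gm45379, whose A-rich end is shown above, lies within Nlrp4b, an oocyte NLR-family gene with close paralogs. It had 17.7, 17.6, 17.4 and 20.2 CPM in cKO oocytes, against 103, 80.7, 136 and 115 CPM in control oocytes, without overlap (log2 fold change -2.57, SE 0.18, edgeR adjusted p = 4.05e-08). Nlrp4b fell by 0.84, and the difference of -1.73 was called (SE 0.23, edgeR adjusted p = 7.54e-07). Over 18 sense_intronic pairs, 9 changed below the host (50%) and 1 above it (5.56%), against 41.9% and 17.6% of the 296 pairs.

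The sense_intronic and sense_overlapping genes of the next sentences were picked after their values were seen. Gm26543, within the glutamate receptor gene Grik2, had 1 count over the cKO libraries and 104 over the controls, a ratio of 0.00920 with an exact 95% counting interval of 0.000231 to 0.0524. Gm15521, within the cell-adhesion gene Ntm, had 116 counts over the cKO libraries and 4 over the controls, and Ntm was not called (0.34). Gm42764 and Gm17491 fell by 2.47 and 1.73, and their hosts Dpysl5 and Slc20a2, a cytoskeletal regulator and a phosphate transporter gene, rose by 0.95 and 0.67. Of the 5 sense_overlapping genes, AC157931.1 and AC124553.1 rose, AC093020.1 fell, and AC122898.1 and Gm20712 were not called; AC122898.1, across the neural POU-factor gene Pou3f3, was the most abundant at 110 ± 12.9 CPM in cKO and 96.7 ± 5.43 CPM in control oocytes (SD, n = 4 each).

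Of 27 tested genes named as opposite-strand transcripts of a coding gene, 16 fell (59.3%) and 2 rose (7.41%), against 53.2% and 13% of all antisense genes of the class tested and 27.9% and 27% of all genes. Kbtbd8os starts 391 bases from the start of Kbtbd8, which encodes a ubiquitin ligase adaptor. It had 9.75, 12.1, 9.67 and 7.30 CPM in cKO oocytes, against 61.0, 45.5, 48.1 and 62.8 CPM in control oocytes. It fell without overlap by 2.49 (SE 0.20, edgeR adjusted p = 1.52e-07), more than Kbtbd8, which fell by 0.66 (difference -1.84, SE 0.26, edgeR adjusted p = 1.61e-06). Pard3bos2, Saxo1os, Rab11fip4os1 and Tbx3os1 fell by 2.25, 2.28, 0.82 and 0.57, and Tbx3, a T-box factor gene, had at most 0.50 CPM in any library. Uchl1os and Hnf4aos fell by 0.55 and 0.45, but neither was called without scaling (adjusted p = 0.0903 and 0.173). Uchl1os also lost its call without control replicate 1, cKO replicate 1 or cKO replicate 2, and Hnf4aos without the filter on low counts, control replicate 1 or cKO replicate 1, 3 or 4. Arhgap20os (-0.36), Dhrs13os (-0.13) and Kank4os (0.46) were not called, and Kank4os was called higher when control replicate 2 was left out (0.78).

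Levels of the non-coding genes and hosts were set side by side per countable kilobase. In 288 pairs with countable bases in both genes, the non-coding gene had more CPM per countable kilobase than its host in 224 in cKO and in 229 in control oocytes. The median level was 6.97 CPM per countable kilobase for the non-coding genes and 1.09 for the hosts in cKO oocytes, and 10.8 and 0.99 in control oocytes. The threshold of 80 counts applied to the non-coding gene alone, and 117 of the 286 hosts had fewer than 80 counts, so this order follows in part from the choice of genes. Counts also gather on last exons and do not scale evenly with countable length, so a long host or one with few countable bases is not measured on the same footing as a short non-coding gene.

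In sequence, the longest transcript that contains the exon with most counts was taken for each gene. Over the 327 genes it had a median length of 872 bases, against 963 bases for tested lincRNA genes, and the median number of exons was 3. GGACT, searched on the transcript strand, occurred at a median of 1.08 per kilobase, against 0.98 in tested lincRNA and 1.00 in tested protein-coding genes. The median was 0.59 per kilobase in the 42 genes that rose, 1.14 in the 174 that fell and 1.29 in the 104 not called. It was 0.93 in rising and 1.08 in falling lincRNA genes, and 0.98 and 1.01 in protein-coding genes. Median transcript length also differed in the class, at 1067.5 bases in the genes that rose and 854.5 in those that fell. These differences were not tested. A match gives letters and not a methylated site.

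Of 48 genes of non-coding RNA turnover and small RNA processing, 23 were tested, of which 7 rose and 4 fell (median log2 fold change 0.09), against 27% higher and 27.9% lower over all genes. Ago1, an Argonaute gene, had 13.5, 21.2, 33.7 and 20.0 CPM in cKO oocytes, against 0.887, 1.44, 1.32 and 2.00 CPM in control oocytes. Ago2, the Argonaute that cleaves its targets, had 48.3, 56.3, 69.9 and 56.0 CPM in cKO oocytes, against 211, 211, 152 and 249 CPM in control oocytes. Neither gene's groups overlapped, and the log2 fold changes were 3.96 for Ago1 (SE 0.35, edgeR adjusted p = 3.23e-07) and -1.84 for Ago2 (SE 0.17, edgeR adjusted p = 5.22e-07). Ago3 and Ago4 rose by 0.69 and 1.04, Dicer1, which cuts double-stranded RNA, fell by 0.55, and Ints6, of the Integrator complex that terminates non-coding transcripts, rose by 1.00.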

How the data were processed

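Per the submitters' processing notes, the authors used STAR, HTSeq and mm10; no version or setting is given in the sources used here. The deposited files hold whole-number counts per Ensembl exon identifier, with 5 summary rows per library that stayed out of library sizes and tests. Of 496288 identifiers, 99.6% matched GENCODE M21 and were summed per gene; unmatched identifiers held 0.252% of counts. An identifier is ambiguous to the counter where another covers it, so only part of each gene is countable.

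Genes were filtered with filterByExpr, scaled by TMM and tested with edgeR 4.0.16 (R 4.3.3; glmQLFit, glmQLFTest, group only), Benjamini-Hochberg adjustment over 10673 genes and a threshold of 0.05; SE is the log2 fold change over the square root of F. CPM use TMM library sizes. The host is the coding gene sharing most gene body, on the opposite strand for antisense genes and on the same strand otherwise. Pairs were fitted with a block per library and a gene-by-group interaction, adjusted over 296 pairs. DESeq2 1.42.0 and limma 3.58.1 served as alternatives, with other scalings, filters, exon sets and left-out libraries. Sequences came from GENCODE M21 transcripts and RefSeq promoters, read with Python 3.11.15.

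The members and lists were chosen with earlier results of these data known. Genes named are Virma, the 10 members with most counts, the 10 largest called falls and rises with groups that do not overlap and the 6 strongest pair differences in each direction at 10 CPM or more, tested opposite-strand symbols (up to 12), 4 abundant uncalled members, the called sense_overlapping members at 10 CPM or more (there were none), up to 6 turnover genes, and their hosts; exceptions are stated. Counting intervals are exact (Clopper-Pearson) at 95%.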

Additional observations from a re-analysis of the deposited data

Results flagged for a closer look

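In 7 of 108 groups of 4 libraries examined, 1 library stood apart from the others, where chance gives about 1 in 20. Control replicate 3 was lowest for Gm40617 (197 CPM) and for the share of counts on sense_overlapping genes (0.00934%). Control replicate 2 was low for Gm10248 (199 CPM) and Pard3bos2 (27.0 CPM) and high for Kank4os (48.6 CPM). Control replicate 4 was high for 9530036O11Rik (7.25 CPM), and cKO replicate 4 was high for Gm45379 (20.2 CPM), both still far from the other group.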

How the results depend on the processing

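Of the 174 falling genes, 109 stayed lower in all 8 other settings and 148 with each library left out in turn. Of the 42 rising genes, 28 and 33 stayed higher, and 0 genes were called in opposite directions. A gene that a setting did not test was counted as not staying, so the remainder may hold untested genes beside genes that lost their call. With 1 library left out, 153 to 179 genes fell and 36 to 43 rose, 62 to 73 pairs lay below the host and 28 to 32 above it, 51 to 59 hosts fell and 32 to 38 rose, and over all genes 2764 to 3018 fell and 2602 to 3068 rose. The turnover list then had 5 to 7 genes higher and 2 to 5 lower (2 without control replicate 2 or cKO replicate 2). The Virma change ranged from -1.92 to -1.72. The difference in share ranged from -0.330 to -0.266 percentage points (cKO minus control).

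Without scaling, the median of all genes moved by 0.16 on the log2 scale and that of the antisense and intronic genes to -0.59, with 156 lower and 53 higher. Calls over all genes in that setting are not given here, so these counts have no background beside them. Gm45040 (0.52), 9230117E06Rik (0.71) and Kank4os (0.61) were called without scaling. A330093E20Rik minus Kcnn2 changed from -0.73 to 0.46 (adjusted p = 0.164) on exon identifiers that meet no other gene; the cause was not tested. It was not called with host last exons (-0.55) or without control replicate 1, cKO replicate 2 or cKO replicate 4.

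Same-numbered libraries did not pair (correlations of deviations -0.06 to 0.11). With the replicate number as a block, 175 genes of the class fell and 40 rose, again without the calls over all genes beside them. Among the genes named, the block called Gm45040 (0.40) and 9230117E06Rik (0.57) and changed no other call. Depth limits genes near 80 counts, where 3 counts are 0.592 to 0.706 CPM.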

Other observations

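Some pairs below 10 CPM, picked after their values were seen, also moved in opposite directions. Among pairs called in opposite directions, the largest difference below 10 CPM was -4.82 (Gm48091 minus Opcml). Above 10 CPM it was 7.23 (C330018A13Rik minus Ccdc60). Gm45875, over the 3′ end of the potassium channel gene Kcnk1, averaged 1.6 ± 0.337 CPM in cKO and 11.4 ± 1.45 CPM in control oocytes (SD, n = 4 each), and Kcnk1 rose by 1.29 on the log2 scale. Gm48091 and Gm15606, on either strand of the cell-adhesion gene Opcml, fell by 3.29 and 2.08, while Opcml rose by 1.43. Gm20275, over the 3′ end of the myosin gene Myo9a, averaged 11.9 ± 0.423 CPM in cKO and 3.63 ± 1.37 CPM in control oocytes, and Myo9a fell by 1.03. Gm11775, across the lymphocyte receptor gene Cd7, averaged 5.61 ± 2.39 CPM in cKO and 0.791 ± 0.123 CPM in control oocytes, and Cd7 fell by 0.90. Mecomos, antisense to the zinc-finger gene Mecom, did not pass the filter on low counts and held 86 counts in cKO and 18 in control libraries.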
